A study of Mus musculus with 16 samples.

Results

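Blood progenitors are the cells of chimeric mouse embryos that received this name by label transfer from a reference atlas of mouse gastrulation and early organogenesis. Members were the cells with that label, in every stage, that had passed the quality filter and were not called doublets. WT-sorted cells with a tdTomato UMI (unique molecular identifier, 1 per captured transcript) were left out. They numbered 302 of 37841 kept cells, of which 279 came from E7.5, 22 from E8.5 and 1 from E9.5, and 178 were null and 124 WT. The atlas label used many genes of each cell, so the levels of genes in these cells against other cells describe the type. Apart from the globins, they are given with no test.

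The study injected *Stat3* null embryonic stem cells (ESCs) of CD1 origin, which carry a tdTomato transgene, into WT CD1 blastocysts, and sorted the dissociated chimeras on tdTomato. The null group holds the tdTomato-positive progeny of the injected cells. The WT group holds the tdTomato-negative host cells of the same chimeras. Whole embryos were profiled with 10x 3′ v3 single-cell RNA-seq in 16 libraries, 2 null and 2 WT at E7.5, the same at E8.5, and 4 null and 4 WT at E9.5. E7.5 and E8.5 libraries came from pooled embryos. At E7.5 the embryos were classed as large or small, so the 2 libraries of a genotype may hold different size classes. At E9.5 the methods name 2 embryos, taken singly, and the labels 4 pools, so the 8 libraries of that stage may share embryos. Null cells descend from injected ESCs and WT cells from a host blastocyst, and whether a single ESC clone gave all null libraries is not stated, so an effect of *Stat3* and an effect of ESC origin, of the line or of the transgene cannot be told apart in any comparison here. By the labels every null library shares its embryo pool with 1 WT library, but the deposited table of cells does not say which, so the letters A to D only name libraries within a group and pair none of them. At E7.5 the WT libraries hold 40 (A) and 67 (B) Blood progenitors and the null libraries 154 (A) and 18 (B).

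Primitive blood forms in the yolk sac from mesoderm that passes through a haematoendothelial state, in which the vascular receptor gene *Kdr* and the ETS factor gene *Etv2* are on. A complex of GATA1, TAL1 and LMO2 with other proteins then turns on the red cell program, with KLF1, the erythropoietin receptor and the embryonic globins among its products, while RUNX1 is required for definitive blood. STAT3 and STAT5 are latent transcription factors that JAK kinases phosphorylate under cytokine receptors, STAT5 under the erythropoietin receptor, and *Cish*, *Socs3* and *Pim1* are among the genes they switch on.

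STAT dimers bind inverted repeats of TTC and GAA, so the start sites of the genes below were searched for TTCNNNGAA and for its tighter form TTCCNGGAA, which is a special case of it. Each motif reads the same on both strands. Windows of 250 bases before to 50 after a RefSeq start (GRCm38.p6) held TTCNNNGAA in 2726 of 32851 cases (8.30%) and TTCCNGGAA in 377 (1.15%). *Cish*, a feedback inhibitor of STAT5 signaling, is shown as a known STAT target, and *Thg1l* and *Zdbf2* are shown because they were the only genes called between null and WT Blood progenitors, of the 18 with a window, whose windows held a match. The windows lie at chr9:107296409-107296708 (+ strand) for *Cish*, chr11:45955139-45955438 (− strand) for *Thg1l* and chr1:63200108-63200407 (+ strand) for *Zdbf2*, and capitals mark the matches.
Cish: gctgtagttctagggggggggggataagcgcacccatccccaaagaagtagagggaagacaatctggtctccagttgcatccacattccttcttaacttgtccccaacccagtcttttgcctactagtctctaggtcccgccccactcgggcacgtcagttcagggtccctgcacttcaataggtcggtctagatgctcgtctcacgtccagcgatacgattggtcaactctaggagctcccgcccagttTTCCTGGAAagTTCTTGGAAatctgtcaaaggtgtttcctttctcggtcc
Thg1l: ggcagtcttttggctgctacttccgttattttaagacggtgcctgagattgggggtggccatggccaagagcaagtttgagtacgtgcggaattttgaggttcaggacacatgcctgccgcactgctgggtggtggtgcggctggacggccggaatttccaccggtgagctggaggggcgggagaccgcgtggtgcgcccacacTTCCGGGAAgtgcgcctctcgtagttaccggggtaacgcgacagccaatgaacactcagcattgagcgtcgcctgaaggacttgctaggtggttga
Zdbf2: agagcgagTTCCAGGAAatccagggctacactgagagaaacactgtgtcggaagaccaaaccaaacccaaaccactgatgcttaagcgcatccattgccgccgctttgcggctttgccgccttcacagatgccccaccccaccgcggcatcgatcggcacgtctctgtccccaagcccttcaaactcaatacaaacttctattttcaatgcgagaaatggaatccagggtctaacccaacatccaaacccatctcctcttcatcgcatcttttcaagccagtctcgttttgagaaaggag
In the *Cish* window TTCCTGGAA began at the start site itself and TTCTTGGAA began 11 bases after it. The *Thg1l* match, TTCCGGGAA, began at base -46 from the start, and the *Zdbf2* match, TTCCAGGAA, at base -242 of a start that lies upstream of the gene's GENCODE M21 span. The *Cish* and *Thg1l* windows lie inside the GENCODE M21 spans of these genes, so their starts are not the outermost annotated ones. The called genes had 26 windows in all, of which 2 held TTCNNNGAA, and both of these matches were of the tighter form TTCCNGGAA; their number is too small to read against the shares over all windows. Both genes were higher in null Blood progenitors, and *Cish* was too low to test there, with 1.09 and 2.86 CPM (UMIs of the gene per 1000000 UMIs of the library's Blood progenitors) in WT A and B and 1.56 and 6.52 CPM in null A and B.

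Kept cells held 10003 to 99964 UMIs each, and Blood progenitors of the 4 E7.5 libraries together held 1839491 (WT A), 2446066 (WT B), 7710719 (null A) and 1226079 (null B) UMIs, so null B gives the least precise levels among them. Of the Blood progenitor barcodes, 6 also marked a kept cell of another library, and 0 marked Blood progenitors in more than 1 library. A tdTomato UMI was found in 140 of 154 (90.9%) null A and 15 of 18 (83.3%) null B Blood progenitors. Library E8.5 null B stands apart: *Grb10*, the gene for an adaptor that restrains insulin and growth factor receptors, stood at 5.14 to 22.4 CPM over all other cells in the 7 other null libraries and at 263 CPM in E8.5 null B, beside 196 to 373 CPM in the WT libraries. Within E8.5 null B, *Grb10* was at 278 CPM in the 828 cells with a tdTomato UMI and at 221 CPM in the 318 without, while *Stat3* was at 1.55 and 1.50 CPM. The E7.5 WT libraries hold 155 of 723 and 270 of 1783 extra-embryonic cells (extra-embryonic ectoderm, visceral endoderm and extra-embryonic endoderm), and the null libraries 4 of 2172 and 0 of 360.

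The markers of the label were present. *Gata1*, the master factor of red cell and megakaryocyte genes (chrX:7959260-7978071, GRCm38), had 178 and 191 CPM in E7.5 WT A and B and 158 CPM in both null A and null B. Its mean of 171 CPM was the highest of 26 E7.5 types with more than 15 cells in a library, ahead of Erythroid cells at 143 and Haematoendothelial progenitors at 27.1, with a median of 0.819 CPM over the other types. *Runx1*, required for definitive blood, also ranked highest, at 260 and 329 CPM in the WT and 254 and 289 CPM in the null libraries. *Lmo2*, the bridging protein of the GATA1 and TAL1 complex, came second at a mean of 356 CPM, behind allantois endothelium at 417. *Tal1*, its helix-loop-helix partner, had rank 4, at a mean of 197 CPM behind embryo proper endothelium at 282. These last genes mark blood and endothelium alike, so *Gata1* and *Runx1* set these cells apart from vessels.

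Cell by cell, the markers were present together. With every cell thinned to 10000 UMIs, at least 3 of the 4 markers had a UMI in 35 of 40 (87.5%) WT A, 64 of 67 (95.5%) WT B, 134 of 154 (87.0%) null A and 17 of 18 (94.4%) null B Blood progenitors. The share was 34.2% to 56.5% of Haematoendothelial progenitors and 0% of nascent mesoderm, a type that should lack these genes and serves here as the measure of free RNA; its cells numbered 176 in WT B, 31 in null B, 18 in null A and 6 in WT A, where a 0 allows up to 1.70%, 9.68%, 16.7% and 50%. No Blood progenitor lacked all 4. A *Gata1* UMI was seen in 70.0% and 80.6% of WT A and B and 76.0% and 83.3% of null A and B cells, against 10.5% to 25% of Haematoendothelial progenitors and 0% to 3.23% of nascent mesoderm. Median depths before thinning were 35601 to 65170 UMIs per Blood progenitor in these libraries.

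Markers of other lineages were mixed, with some absent and others above the level in nascent mesoderm. *Ptprc*, the pan-leukocyte gene for CD45, and *Csf1r*, the macrophage receptor gene, had 0 UMIs in every E7.5 library of Blood progenitors. The summed level of 13 myeloid genes was 55.0 to 66.9 CPM, beside 5.20 to 8.72 CPM in nascent mesoderm, and *Spi1* of that list had 13.6 to 22.8 CPM. The 16 megakaryocyte genes summed to 48.1 to 74.0 CPM, beside 0 to 2.04 CPM in nascent mesoderm, and *Itga2b* of that list had 24.5 to 35.9 CPM. The 18 endothelial genes summed to 282 to 326 CPM, beside 100 to 158 CPM in nascent mesoderm. The 12 streak and mesoderm genes summed to 19 to 45.0 CPM, beside 736 to 1946 CPM in nascent mesoderm. The myeloid, megakaryocyte and endothelial sums thus stood above those of nascent mesoderm, and the streak sum below.

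The share of Blood progenitors did not differ between null and WT cells beyond the spread of the libraries. At E7.5 they made up 5.53% of WT A (40 of 723 cells, exact 95% interval 3.98 to 7.46), 3.76% of WT B (67 of 1783, 2.92 to 4.75), 7.09% of null A (154 of 2172, 6.05 to 8.25) and 5.0% of null B (18 of 360, 2.99 to 7.79). The genotypes overlapped, since null B lay between the 2 WT libraries. Means were 6.05% ± 1.48 (SD, n = 2) for null and 4.65% ± 1.25 (SD, n = 2) for WT, with a log2 fold change of 0.02 (SE 1.03, adjusted p = 0.991 over 27 types, edgeR's quasi-likelihood test). An SE of that size is as large as a 2-fold change. Leaving the extra-embryonic cells out of the total gave 7.10% and 5.0% in null A and B against 7.04% and 4.43% in WT A and B. Intervals here and elsewhere cover counting error only.

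By E8.5 the type was rare. WT B held 16 of 3825 cells (0.418%, exact 95% interval 0.239 to 0.678) and null B 6 of 1146 (0.524%, 0.192 to 1.14), while WT A had 0 of 2544, which allows a share of up to 0.118% (3 counts of the total; exact upper bound 0.145%), and null A 0 of 3833, which allows up to 0.0783% (exact upper bound 0.0962%). Each genotype thus had 1 library with Blood progenitors and 1 without. The log2 fold change was -0.29 (SE 2.03, adjusted p = 0.984 over 68 types). E9.5 held 1 cell, in WT B, with 0 of 9876 null cells, which allows up to 0.0304%.

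**Figure D1:**
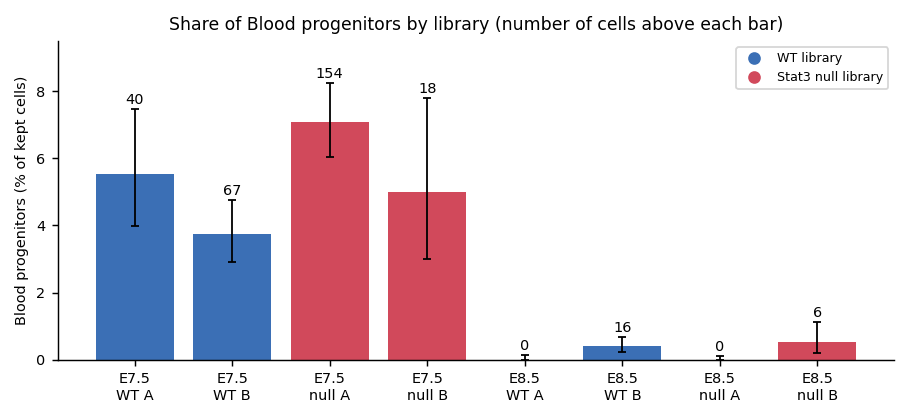
Share of Blood progenitors (percent of kept cells) in each E7.5 and E8.5 library by genotype, with exact 95% binomial intervals and the number of these cells above each bar. The E7.5 libraries sit between 3.76% and 7.09% with both genotypes overlapping, and the E8.5 libraries sit at or below 0.524%.

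Within the path of Haematoendothelial progenitors, Blood progenitors and Erythroid cells, Blood progenitors were 76.9% of the path in WT A and 43.8% in WT B, and 62.3% and 43.9% in null A and B. This share differed more between libraries of 1 genotype than between genotypes. Nascent mesoderm was 6 of 723 cells in WT A and 18 of 2172 in null A, against 176 of 1783 in WT B and 31 of 360 in null B. Libraries of 1 genotype thus also differed in composition, and whether embryo size class lies behind this was not tested. Cells were also placed on the stage of their nearest atlas cells, and most mapped to E7.75: 25 of 40 and 47 of 67 in WT A and B, and 113 of 154 and 15 of 18 in null A and B. The mean mapped day was 7.72 ± 0.0235 for null and 7.68 ± 0.00112 for WT (SD, n = 2). Both null libraries lay above both WT libraries, by 0.0375 days between the means, and the exact two-sided permutation test gave p = 0.333, the smallest that 6 arrangements of 2 against 2 allow. At E8.5 the 16 WT B cells had a mean mapped day of 7.84 and the 6 null B cells one of 7.92, so these were the atlas's younger cells in an older embryo.

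For some genes Blood progenitors sat between their neighbors on this path. *Kdr*, the VEGF receptor gene, was at 241 to 337 CPM in E7.5 Haematoendothelial progenitors, at 22.3 and 26.6 CPM in WT and 17.9 and 26.1 CPM in null Blood progenitors, and at 1.32 to 1.79 CPM in E8.5 Erythroid cells. *Etv2*, which switches on the haemangioblast program, had 189 to 407 CPM in Haematoendothelial progenitors and 17.9 to 40.0 CPM in Blood progenitors. Both genes lay lower in every Blood progenitor library than in any library of the earlier type. *Gata2*, a GATA factor of early progenitors that GATA1 displaces, differed from them. Its 99.1 to 157 CPM in E7.5 Blood progenitors overlapped the 97.3 to 158 CPM of Haematoendothelial progenitors, and it was at 17.7 CPM in the E8.5 WT B Blood progenitors and at 0.792 to 3.82 CPM in E8.5 Erythroid cells.

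Several red cell genes ran the other way, in steps, but not all. *Gata1* had 18.8 to 40.5 CPM in E7.5 Haematoendothelial progenitors, 158 to 191 CPM in E7.5 Blood progenitors and 87.5 to 111 CPM in E8.5 Erythroid cells. *Gfi1b* had 10.0 to 33.0, 70.8 to 87.9 and 35.3 to 48.1 CPM in the same types. *Klf1*, the erythroid Krüppel-like factor, had 0.669 to 1.97 CPM in Haematoendothelial progenitors, then 94.6 and 63.8 CPM in WT and 84.4 and 63.6 CPM in null Blood progenitors, then 186 to 220 CPM in E8.5 Erythroid cells. *Cited4*, a transcriptional co-regulator, had 12.7 to 47.2 CPM in the earlier type and 291 to 392 CPM in Blood progenitors. *Epor*, the erythropoietin receptor, went from 3.3 to 8.6 CPM to 47.4 to 59.3 CPM. *Alas2*, which makes the rate-limiting enzyme of haem synthesis in red cells, was at 28.2 to 33.2 CPM in Blood progenitors and at 197 to 355 CPM in E8.5 Erythroid cells, so most of its level came later. All 13 haem synthesis genes had a UMI in every E7.5 Blood progenitor library, with a sum of 999 to 1249 CPM. In nascent mesoderm 12 or 13 of them had a UMI, with a sum of 430 to 628 CPM, so their detection alone does not mark Blood progenitors.

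Among genes at 50 CPM or more in Blood progenitors, the 20 with the largest ratio of Blood progenitors to the other cells of the same E7.5 libraries were led by *Cited4* (61.2-fold, 348 CPM), *Klf1* (60.7-fold, 76.6 CPM), *Gfi1b* (52.0-fold, 80.7 CPM), a repressor needed for red cells and platelets, and *Gata1* (42.2-fold). All 4 markers were among them, since *Runx1* stood at 18.7-fold, *Tal1* at 10.9-fold and *Lmo2* at 10.9-fold. *Ikzf1* (39.4-fold), a zinc finger factor of blood stem cells and lymphocytes, *Fermt3* (28.9-fold), which activates integrins in blood cells, *Myb* (12-fold), a factor of proliferating progenitors, and *Hbb-bh1* (21.2-fold), an embryonic globin, were further members. With the same minimum at E8.5, *Rab27b* (20.7-fold) and *Myb* (18.9-fold) led, 10 of 20 genes were shared with the E7.5 list, and *Gata1* stood at 5.99-fold. *Klf1* and the globins were not among the E8.5 leaders, where Erythroid cells are part of the other cells. GATA1 binds AGATAA, searched on both strands, and of the 18 start windows that 14 of the 20 E7.5 genes had, 2 (11.1%) held it, those of *Tal1* and *Epor*, against 11.2% of all windows.

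**Figure D2:**
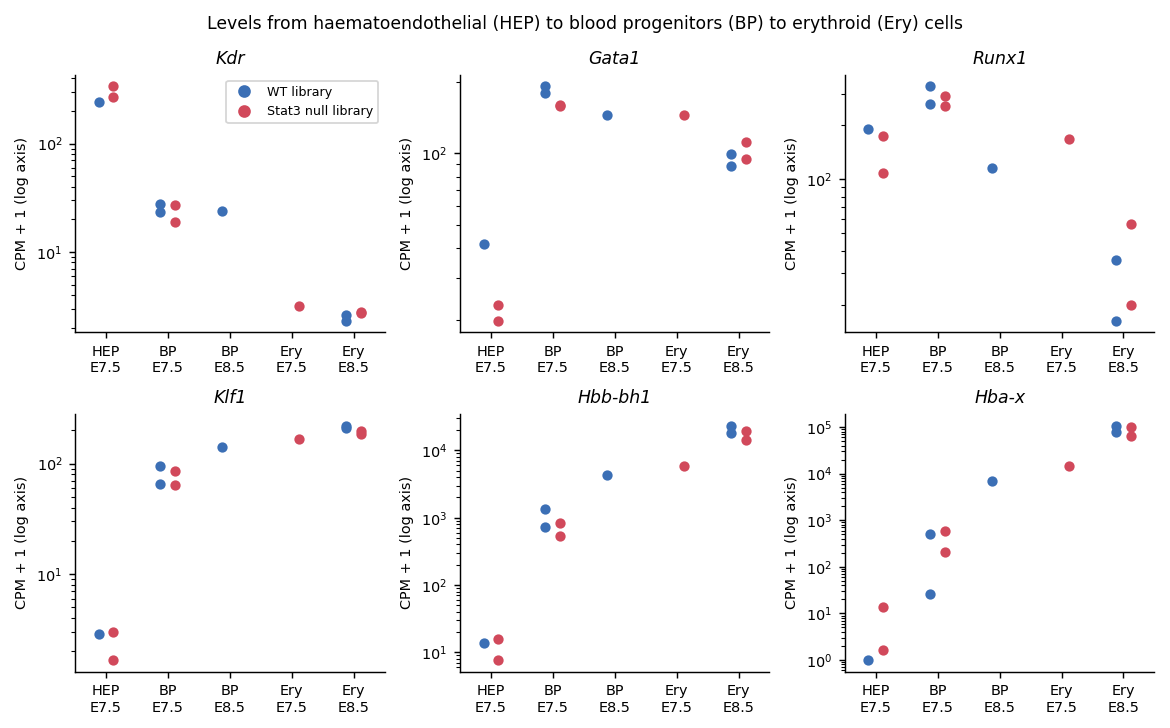
Levels (CPM + 1, log axis) of path genes in Haematoendothelial progenitors, Blood progenitors and Erythroid cells, 1 point per library with more than 15 cells of the type. *Kdr* is highest in Haematoendothelial progenitors, *Gata1* and *Runx1* in E7.5 Blood progenitors, and *Klf1*, *Hbb-bh1* and *Hba-x* in E8.5 Erythroid cells, in null (red) as in WT (blue) libraries.

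Globin genes were left out of the genes by which the study transferred its labels, so the label did not use them directly. Other red cell genes such as *Klf1* were not among the kinds left out. A rise of globins under this label is therefore not independent of it. The log2 fold changes below give its size, and the p-values are no independent evidence for it. *Hbb-bh1*, the embryonic beta-like globin that comes on earliest (chr7:103841637-103843164, GRCm38), had 6.69 to 14.9 CPM in Haematoendothelial progenitors and 532 to 1365 CPM in Blood progenitors of E7.5. The 2 types did not overlap. Against Haematoendothelial progenitors of the same 3 libraries, with the library as a block, it rose by 5.93 on the log2 scale (SE 0.0918, adjusted p = 6.82e-24, 9194 genes tested, of which 11.5% were called and 2.8% were called higher in Blood progenitors). *Hba-x*, the embryonic alpha-like globin, rose by 5.86 (SE 0.173, adjusted p = 1.16e-14), the adult-type alpha globin *Hba-a1* by 4.95 (SE 0.314, adjusted p = 1.10e-11) and the adult-type beta globin *Hbb-bs* by 3.18 (SE 0.492, adjusted p = 2.35e-05). *Hbb-y*, the other embryonic beta-like gene, did not pass (log2 fold change 1.38, SE 1.47, adjusted p = 0.587). Alpha and beta globin copies are near-identical, so reads of *Hba-a1* and *Hbb-bs* may belong to their paralogs.

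Globin was uneven among the cells. With cells thinned to 10000 UMIs the median *Hbb-bh1* count per Blood progenitor was 4.5 and 5.0 in WT A and B and 2.5 and 3.5 in null A and B, while the highest cells held 74, 54, 69 and 50 UMIs. Some cells thus carried globin at the level of Erythroid cells, whose median in E7.5 null A was 48. An *Hbb-bh1* UMI was seen in 71.6% to 80.0% of cells, against 0% to 14.5% of Haematoendothelial progenitors and 0% to 5.56% of nascent mesoderm. Cells with *Gata1* and *Kdr* UMIs at once, at this depth, numbered 3 of 40 and 16 of 67 in WT A and B and 14 of 154 and 3 of 18 in null A and B. *Hbb-bh1* was higher in cells mapped to E7.75 than in those mapped to E7.5 within all 4 libraries, at 1694 against 404 CPM in WT A, 807 against 526 in WT B, 890 against 234 in null A and 596 against 203 in null B. Null B had 2 cells mapped to E7.5, which limits its value. For *Hba-x* the levels were 1.81 and 679 CPM in WT A, 1.70 and 32.2 CPM in WT B, and 21.3 and 678 CPM in null A, while null B had 0 UMIs in its 2 cells of E7.5 and 108 CPM at E7.75. *Hbb-y* had 34.5 CPM in the earlier and 11.7 CPM in the later cells of WT A, and 11.9 and 12 CPM in WT B. It had 3.55 and 15.2 CPM in null A and 6.34 and 70.7 CPM in null B. It was thus lower in the later cells of WT A, about equal in WT B and higher in both null libraries. The earlier cells held only 6 UMIs of it in null A and 1 in null B, and no test was made.

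Between the genotypes the globins were not told apart. *Hbb-bh1* had 1365 and 737 CPM in WT A and B and 833 and 532 CPM in null A and B, and *Hba-x* had 494 and 24.5 CPM in WT A and B and 594 and 208 CPM in null A and B. Both genes overlapped between genotypes, and *Hba-x* differed most within WT. In the fit that kept the globins (8566 genes tested), the log2 fold change was -0.56 (SE 0.519, adjusted p = 0.996) for *Hbb-bh1* and 0.76 (SE 1.77, adjusted p = 0.996) for *Hba-x*, and *Hba-a1*, *Hbb-bs* and *Hbb-y* did not pass either.

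The comparison of null with WT Blood progenitors asks which genes differ in the type that comes before Erythroid cells on this path. It could be tested at E7.5, where both genotypes have 2 libraries with more than 15 of these cells. Of 8194 genes tested, 28 were called (adjusted p under 0.05 and a log2 fold change beyond 1 in size), 12 higher and 16 lower in null, which is 0.342% of the genes tested (0.146% higher, 0.195% lower). The adjusted p alone passed 40 genes (0.488%) and the unadjusted p 422. Few genes, then, separated null from WT Blood progenitors: *Stat3* and its *Stat5* neighbors, *Cd59a*, imprinted *Grb10* and *Igf2*, 3 zinc finger genes of chromosome 4 and 3 histone genes were among them. The p-values measure the spread between 2 libraries a genotype, of pooled embryos that may differ in size class. All genes had a median log2 fold change of 0.00212.

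The targeted gene came out low, as the labels say. *Stat3* (chr11:100885098-100939540, − strand, GRCm38) had 30.4 and 31.1 CPM in WT A and B against 3.50 and 5.71 CPM in null A and B. The groups were well apart, and *Stat3* fell by 2.93 on the log2 scale (SE 0.290, adjusted p = 1.24e-05). The 3′ tags of this assay need not come from the deleted exons, so the level does not show the deletion itself. *Stat5a*, next to it (chr11:100859351-100885169, + strand), had 19 and 15.1 CPM in WT and 1.04 and 0 CPM in null, and fell by 4.17 (SE 0.488, adjusted p = 8.08e-05). *Stat5b*, beyond that (chr11:100780731-100850724, − strand), had 35.3 and 33.1 CPM in WT and 10.1 and 14.7 CPM in null, and fell by 1.58 (SE 0.241, adjusted p = 0.00136), but without null A its adjusted p was 0.183. The annotated ends of *Stat3* and *Stat5a* overlap on opposite strands. *Ptrf* (also *Cavin1*, chr11:100956736-100970617), the gene on the other side of *Stat3* and a coat protein of caveolae, had 8.70 and 12.7 CPM in WT and 0.130 and 1.63 CPM in null and fell by 4.78 (SE 0.698, adjusted p = 0.00117), a call lost without null A or without WT B (highest adjusted p 0.201). So 4 of the called genes are neighbors on chromosome 11.

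Other members of that pathway gave no call. Of 11 JAK and STAT genes 6 could be tested, 3 fell and none rose, with a list median of -1.20, and *Jak1* (log2 fold change -0.03), *Jak2* (-0.56) and *Stat6* (-0.83) did not pass. Of 19 STAT feedback and response genes 11 could be tested, and 0 of these were called by edgeR or DESeq2. At the 0.342% called over all genes, a list of this size would mostly give no call. An unadjusted p under 0.05 was found for 2, *Socs2* and *Ccnd1*, beside 422 of all 8194 genes tested. *Socs2*, an inhibitor of cytokine signaling, had 20.1 and 26.2 CPM in WT and 11.5 and 18.8 CPM in null (log2 fold change -0.79, adjusted p = 0.582). *Pim1*, a kinase gene under STAT control, had 95.1 and 76.0 CPM in WT and 91.3 and 86.5 CPM in null, and so overlapped. *Socs3* was at 0 to 0.778 CPM in all 4 libraries, too low to test.

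Of 11 genes listed for erythroid cells with earlier results of these samples known, *Cd59a* had the lowest p in Blood progenitors. *Cd59a* (chr2:104095801-104115354, GRCm38) encodes a surface protein that shields cells from complement. It had 117 and 101 CPM in WT A and B against 27.6 and 36.7 CPM in null A and B. Both null libraries thus lay below both WT libraries, as they did for 21.6% of all genes tested. *Cd59a* fell by 1.81 on the log2 scale (SE 0.170, adjusted p = 7.16e-06), a call that held in all 13 other settings. With cells thinned to 10000 UMIs, a *Cd59a* UMI was found in 25 of 40 (62.5%) WT A, 32 of 67 (47.8%) WT B, 41 of 154 (26.6%) null A and 7 of 18 (38.9%) null B Blood progenitors, and unthinned in 97.5%, 73.1%, 64.3% and 77.8%. In nascent mesoderm the thinned share was 9.66% in WT B and 29.0% in null B, so in null B the types were close, and 0 of 6 cells in WT A and 0 of 18 in null A, which allow shares of up to 50% and 16.7%. Of that list of 11, 6 could be tested and 3 fell, *Cd59a*, *Stat5a* and *Lyrm7*, with a median of -1.14; the list was chosen on these samples, so the count is no independent evidence. *Lyrm7*, an assembly factor of respiratory complex III, had 7.07 and 6.54 CPM in WT and 0.908 and 0.816 CPM in null (log2 fold change -2.83, SE 0.585, adjusted p = 0.0289), and its call was lost in 7 of 12 other settings, including each of the fits without 1 library.

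The next group is imprinted genes, which are expressed from the copy of 1 parent. *Grb10* (chr11:11930508-12038683, GRCm38) had 154 and 140 CPM in WT A and B and 0.908 and 0.816 CPM in null A and B, and it fell by 7.26 (SE 0.262, adjusted p = 1.51e-12), the lowest p of all genes. By cells, 40 of 40 WT A and 66 of 67 WT B Blood progenitors had a *Grb10* UMI, against 7 of 154 null A and 1 of 18 null B cells, each with 1 UMI. *Igf2*, the fetal growth factor (chr7:142650766-142666816), had 152 and 160 CPM in WT and 288 and 346 CPM in null and rose by 1.04 (SE 0.119, adjusted p = 6.03e-05), a fold that went below the threshold in 3 settings, to 0.93 at the lowest. *H19*, the noncoding gene next to *Igf2*, had 691 and 688 CPM in WT and 65.1 and 250 CPM in null, apart but far from each other in null, and did not pass (log2 fold change -2.32, SE 0.902, adjusted p = 0.996). *Zdbf2*, another imprinted gene, rose by 1.15 (SE 0.187, adjusted p = 0.00242), from 22.3 and 25.3 CPM to 52.5 and 50.6 CPM, and lost its call without null A (adjusted p = 0.0615). Of 15 listed imprinted genes, which do not include *Zdbf2*, 13 were tested, 1 rose and 1 fell, with a median of -0.16. *Phlda2*, a brake on placental growth, had 143 and 160 CPM in WT and 109 and 66.1 CPM in null (log2 fold change -0.65, adjusted p = 0.199). On that list, then, *Igf2* rose, *Grb10* fell and the other 11 tested genes were not called.

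Of the zinc finger genes of distal chromosome 4, 3 were called higher in null. *Zfp985* (chr4:147553277-147585198) had 3.26 and 5.31 CPM in WT and 18.9 and 20.4 CPM in null and rose by 2.16 (SE 0.328, adjusted p = 0.00134). *Zfp984* (chr4:147753974-147809788) rose by 2.01 (SE 0.308, adjusted p = 0.00136), from 7.07 and 6.13 CPM to 22.4 and 34.3 CPM. *Zfp990* (chr4:145510759-145539188) rose by 1.39 (SE 0.211, adjusted p = 0.00134), from 16.3 and 15.1 CPM to 39.6 and 40.8 CPM. All 3 were called in all 13 other settings. Both null libraries lay above both WT libraries for each, as they did for 12.7% of all genes tested. Among 9 genes listed for a shift in null erythroid cells of these samples, 6 were tested, of which *Zfp985* and *Zfp984* rose and *Akr1e1* fell, with a median of 0.27. Over all genes 0.342% were called, but this list was chosen on these samples, so its count is no independent evidence. *Zfp979*, another zinc finger gene on that list, had 19 and 15.9 CPM in WT and 20.9 and 27.7 CPM in null and did not pass (log2 fold change 0.43, adjusted p = 0.996). The called zinc finger genes belong to a cluster of near-identical copies, so which copy the reads came from is uncertain. *Pusl1*, a pseudouridine synthase gene further along chromosome 4 (chr4:155887879-155891781), had 39.1 and 31.9 CPM in WT and 9.08 and 9.79 CPM in null and fell by 1.89 (SE 0.241, adjusted p = 0.000228); it lay outside the rule for named genes and was added after its values were seen.

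Of the histone genes, 3 were called, all higher in null; no list of them was tested. *Hist1h4d* (chr13:23581598-23582735) rose by 1.30 (SE 0.155, adjusted p = 9.10e-05), from 47.8 and 56.8 CPM in WT to 137 and 109 CPM in null. *Hist1h3c* (chr13:23744973-23745602) rose by 1.34 (SE 0.214, adjusted p = 0.00242), from 40.2 and 24.5 CPM to 86.5 and 61.2 CPM, and lost its call in 3 of 13 settings (without WT B, without null A and with E8.5 added; highest adjusted p 0.248). *Hist1h2ae*, also added after its values were seen, rose by 1.00 (SE 0.113, adjusted p = 5.96e-05) and lost its call in 8 of 13 settings. These genes are copies of each other in part. Of the listed cell cycle genes, 0 of 22 S phase and 0 of 21 G2 and M phase genes were called by edgeR or DESeq2. In these lists 2 and 1 genes had an unadjusted p under 0.05. At the 0.342% called over all genes, lists of these sizes would mostly give no call. The S phase list summed to 3218 and 2744 CPM in WT and 3085 and 3055 CPM in null, which overlap.

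**Figure D3:**
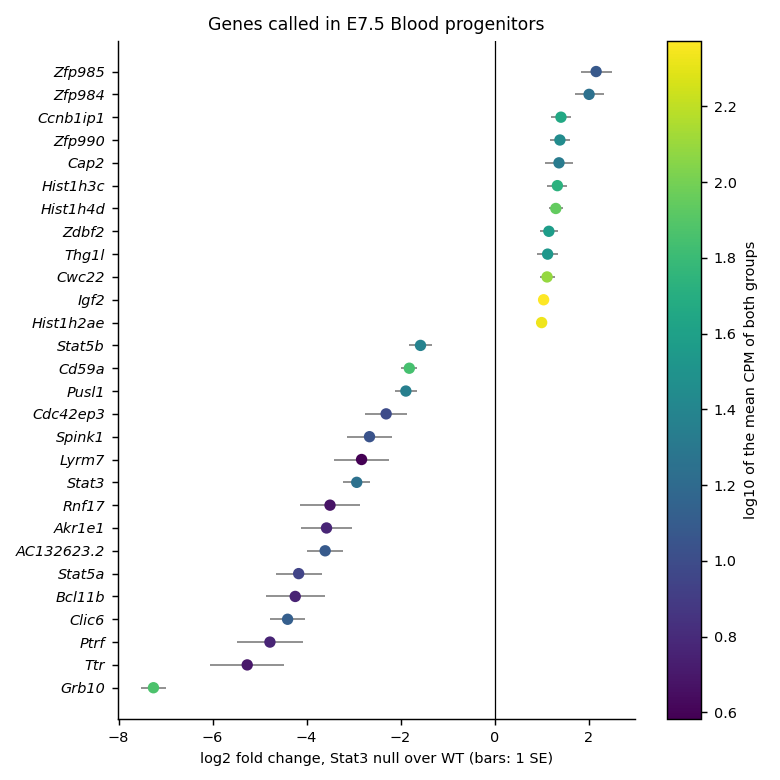
Log2 fold change of null over WT with 1 SE for the 28 genes called in E7.5 Blood progenitors, colored by the log10 of the mean CPM of both groups. *Grb10* lies lowest at -7.26 and *Zfp985* highest at 2.16, and 16 genes lie below 0 and 12 above.

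Some calls concern genes of other tissues. *Ttr*, the thyroid hormone carrier of visceral endoderm, had 4.89 and 14.7 CPM in WT and 0.259 and 0 CPM in null, and *Spink1*, a protease inhibitor gene named after its values were seen, had 9.79 and 29.0 CPM in WT and 3.37 and 1.63 CPM in null. The *Spink1* call was lost in 5 of 13 settings, among them without WT B, without null A and without null B (highest adjusted p 0.853). In WT B *Ttr* was also at 16.1 CPM in Haematoendothelial progenitors, 13.7 in nascent mesoderm and 11.5 in epiblast, with 4273 CPM in visceral endoderm, and *Spink1* was at 33.0, 33.8, 33.7 and 10069 CPM in the same types. Both genes thus stood in WT B Blood progenitors at much the level of types that should lack them. The 10 visceral and yolk sac endoderm genes summed to 19.6 and 41.3 CPM in WT A and B, with 9 and 8 of them detected, and to 4.15 and 0.816 CPM in null A and B, with 5 and 1 detected. Of the 28 called genes, 27 are on neither the endoderm nor the extra-embryonic ectoderm marker list. *Spink1* is among these, so the lists do not show which calls carry this RNA. *Rnf17*, also off the lists, had 29.6 and 33.8 CPM in extra-embryonic ectoderm of WT A and B. In WT B it had 13.1 CPM in Blood progenitors, 7.98 in nascent mesoderm and 8.02 in epiblast. The part of this RNA in the calls was not tested. The endoderm list had 2 genes tested, of which *Ttr* was called. *Clic6*, a chloride channel gene, was different: at 23.7 CPM in WT B Blood progenitors and 28.9 in Haematoendothelial progenitors, it had 0.742 CPM in nascent mesoderm. It had 26.6 CPM in WT A and 1.17 and 0.816 CPM in null and fell by 4.41 (SE 0.380, adjusted p = 2.82e-06).

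The remaining calls were of genes with scattered roles. *Akr1e1*, an aldo-keto reductase, fell by 3.58 (SE 0.540, adjusted p = 0.00134), from 10.9 and 11.4 CPM to 1.04 and 0 CPM. *Bcl11b*, a zinc finger factor best known from T cells, had 7.07 and 15.1 CPM in WT and 0.648 and 0 CPM in null (log2 fold change -4.24, adjusted p = 0.00125) and was lost without null A or without WT B (highest adjusted p 0.656). *Ccnb1ip1*, a ubiquitin ligase that acts on cyclin B, rose by 1.41 (SE 0.210, adjusted p = 0.00126), from 29.4 and 20.03 CPM to 57.1 and 74.2 CPM. The unplaced gene *AC132623.2*, *Rnf17* and *Cdc42ep3* fell, with log2 fold changes of -3.61, -3.50 and -2.31, and *Cwc22*, *Thg1l* and *Cap2* rose, with 1.12, 1.13 and 1.37, each with adjusted p of 0.0326 or less. *Rnf17*, *Thg1l* and *Cap2* were lost in 5, 6 and 7 other settings and *Cdc42ep3* and *Cwc22* in 3 each, *Cdc42ep3* was named after its values were seen, and each of the 28 kept its direction in every setting in which it was tested.

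**Figure D4:**
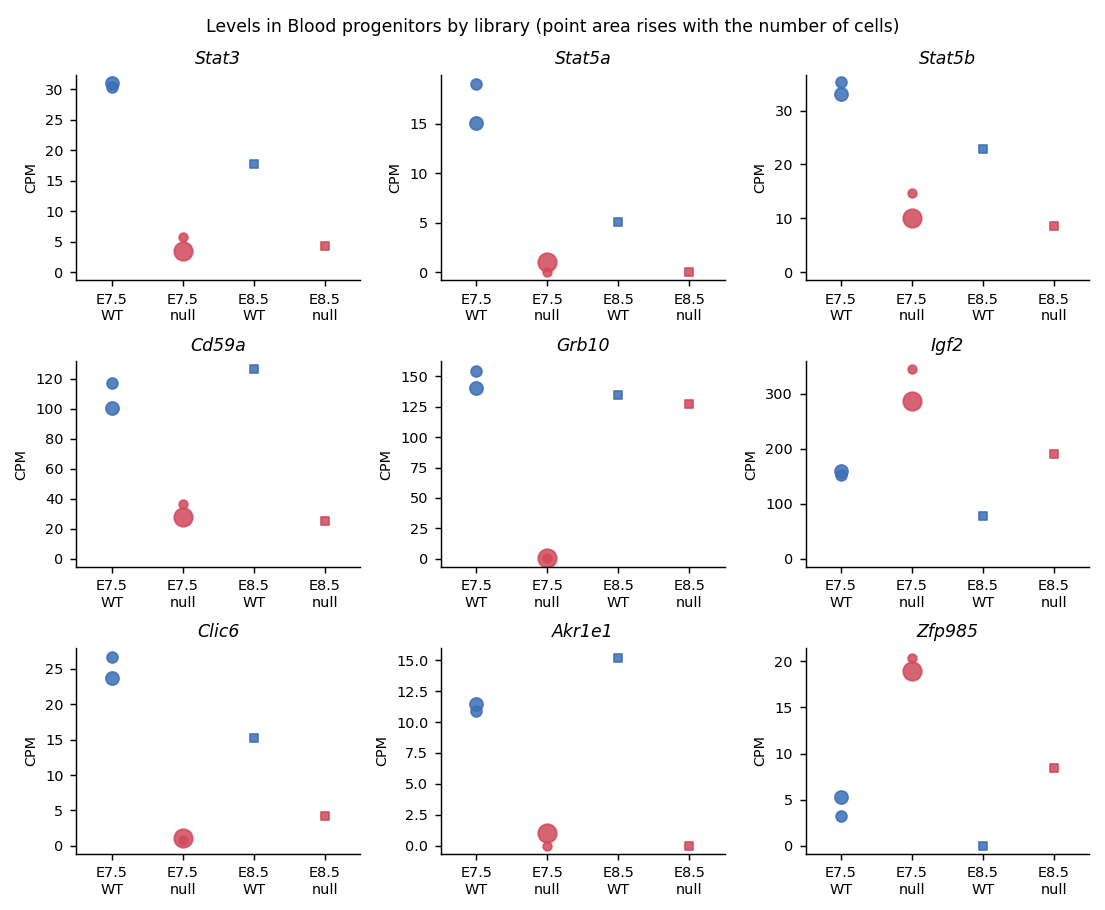
CPM of 9 named genes in the Blood progenitors of each library (linear axes; circles E7.5, squares E8.5; blue WT, red null; point area rises with the number of cells). At E7.5 *Igf2* and *Zfp985* are higher and the other 7 genes lower in both null libraries than in both WT libraries, while at E8.5 *Grb10* stands at 127 CPM in null and 134 CPM in WT.

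The blood transcription factors gave no call, as a list of this size mostly would at the 0.342% called over all genes. Of 19 blood transcription factors tested, 0 were called by edgeR or DESeq2, 1, *Gata2*, had an unadjusted p under 0.05, and the median was -0.06. *Gata2* had 131 and 157 CPM in WT and 99.1 and 124 CPM in null (log2 fold change -0.38, SE 0.141, adjusted p = 0.760). *Gata1* had a log2 fold change of -0.18 (SE 0.116, adjusted p = 0.996), *Tal1* 0.02 (SE 0.121), *Lmo2* 0.00334 (SE 0.100) and *Runx1* -0.10 (SE 0.121). Bounds of 2 SE around these 4 values ran from -0.41 (*Gata1*) to 0.26 (*Tal1*). *Epor* was at 59.3 and 47.4 CPM in WT and 49.0 and 54.6 CPM in null, and 0 of 6 cytokine receptors were called by edgeR or DESeq2, with *Lifr* alone at an unadjusted p under 0.05 (log2 fold change -0.61, adjusted p = 0.833).

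Haem and iron genes leaned little, and lists of these sizes would mostly give no call at the 0.342% called over all genes. Of 13 haem synthesis genes 0 were called by edgeR or DESeq2, with a median of 0.11. *Tmem14c*, which moves a haem precursor into mitochondria, passed the adjusted p but not the fold, at 216 and 263 CPM in WT and 397 and 373 CPM in null (log2 fold change 0.73, SE 0.113, adjusted p = 0.00157). Of 6 iron genes 0 were called by edgeR or DESeq2, and 2, *Fth1* and *Tfrc*, had an unadjusted p under 0.05, with *Fth1*, the ferritin heavy chain, at 4431 and 4359 CPM in WT and 5089 and 5576 CPM in null (log2 fold change 0.32, adjusted p = 0.136). Of 7 red cell membrane genes 0 were called by edgeR or DESeq2, and 1, *Sptb*, red cell spectrin, had an unadjusted p under 0.05, with 33.2 and 37.2 CPM in WT and 23.6 and 17.9 CPM in null (log2 fold change -0.63, adjusted p = 0.491).

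Survival and energy genes gave 1 call. At the 0.342% called over all genes, lists of the sizes below would mostly give none. Of 9 p53 targets 0 were called by edgeR or DESeq2 and 3 (*Phlda3*, *Sesn2* and *Mdm2*) had an unadjusted p under 0.05, all higher in null. Their list had a median of 0.40 beside 0.00212 over all genes, with *Mdm2*, the p53 inhibitor, at 40.2 and 49.1 CPM in WT and 56.4 and 60.4 CPM in null (adjusted p = 0.918). Of 11 BCL2 family and mitophagy genes 0 were called, with 0 at an unadjusted p under 0.05, and of 19 glycolysis and hypoxia genes 0 were called, with 2; DESeq2 called 0 in both lists. Oxidative phosphorylation had 1 of 19, *Lyrm7*, and a median of -0.05. Endothelial (0 of 9), megakaryocyte (0 of 4), myeloid (0 of 3), streak and mesoderm (0 of 3), epiblast (0 of 4) and extra-embryonic ectoderm (0 of 2) lists gave no call by edgeR or DESeq2, with 1, 1, 0, 0, 1 and 2 genes at an unadjusted p under 0.05. *Rhox5*, a homeobox gene of extra-embryonic tissue, had 7.07 and 31.1 CPM in WT and 0.908 and 0 CPM in null and did not pass (adjusted p = 0.112). In all, 12.7% of genes had both null libraries above both WT libraries and 21.6% had both below, so libraries that do not overlap are common here.

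The same comparison was made in Haematoendothelial progenitors of the same libraries, a step earlier on the path, with 85 WT B, 76 null A, 23 null B and only 8 WT A cells. In them 11 of 8577 genes were called (0.128%), 3 higher and 8 lower, and 9 of the 11 were among the 28 of Blood progenitors. In Haematoendothelial progenitors the log2 fold change was -7.59 for *Grb10*, -3.02 for *Stat3*, -3.07 for *Clic6* and 1.06 for *Igf2*, all called. The 24 of 28 genes tested in both types had the same direction in both. Both types come from the same libraries, and the share of all genes with the same direction was not computed. The shared direction thus does not show at which step the differences arose. The difference between the types was tested in 1 fit with the library as a block, and 0 of 9030 genes were called by edgeR (0%), with 287 at an unadjusted p under 0.05 and no other tool run. *Phlda2* was the 1 gene that passed the adjusted p, and it missed the fold, with a difference of -0.90 (SE 0.150, adjusted p = 0.0472). Its level in Haematoendothelial progenitors was 563 and 688 CPM in WT A and B and 759 and 668 CPM in null A and B, a log2 fold change of 0.20 there against -0.65 in Blood progenitors.

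*Cd59a* was the called gene with the lowest p for that difference, a choice made after its values were seen. In Haematoendothelial progenitors it had 147 and 114 CPM in WT A and B and 76.8 and 63.6 CPM in null A and B, and the log2 fold change was -0.76 (SE 0.187, adjusted p = 0.271). In Blood progenitors it was -1.81, and the difference was -1.05 (SE 0.218, unadjusted p = 8.89e-05, adjusted p = 0.401), which did not pass. Levels in WT held from 101 to 147 CPM through both types. In null they were lower at each step, and the 17 Erythroid cells of E7.5 null A had 2.17 CPM. At E8.5 Erythroid cells had 154 and 122 CPM in WT and 13.7 and 7.16 CPM in null. *Stat5a* had a log2 fold change of -2.96 in Haematoendothelial progenitors (adjusted p = 0.617), where its WT level was 15.6 and 4.87 CPM.

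**Figure D5:**
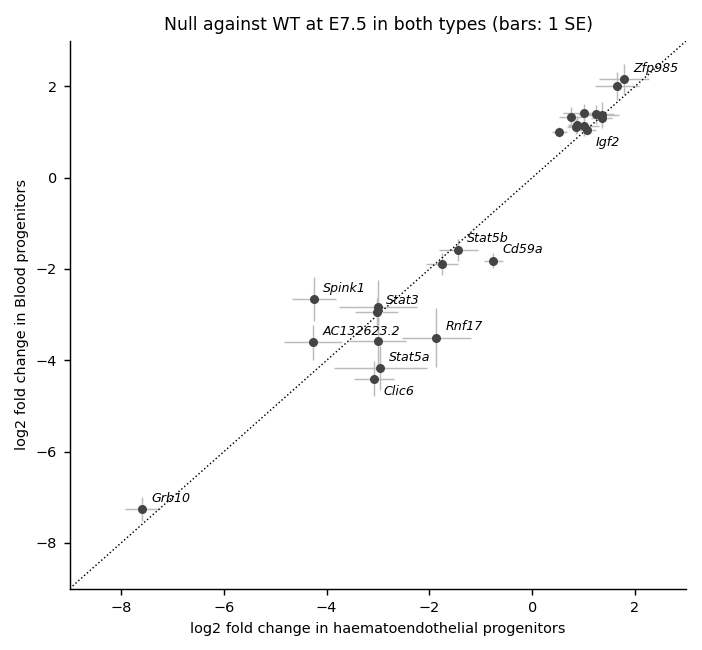
Log2 fold change of null over WT in Haematoendothelial progenitors (x) and Blood progenitors (y) at E7.5 with 1 SE, for the 24 called genes tested in both; the dotted line marks equal values. All 24 genes lie on the same side of 0 in both types, and *Cd59a* lies below the line at -0.76 and -1.81.

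At E8.5 there was 1 library a genotype, 16 cells in WT B with 394768 UMIs and 6 in null B with 236208, so no test was made within this stage and the values compare 2 libraries. *Cd59a* was at 25.4 CPM (exact Poisson 95% interval 9.32 to 55.3) in null against 127 CPM (94.0 to 167) in WT. *Stat3* was at 4.23 CPM (0.107 to 23.6) against 17.7 CPM (7.13 to 36.5). *Igf2* was at 191 CPM (139 to 255) against 78.5 CPM (53.4 to 111), and *H19* had 0 UMIs, which allows up to 12.7 CPM, against 274 CPM (224 to 330). In these 4 genes null lay on the same side of WT as at E7.5. *Grb10* lay near WT: it was at 127 CPM (85.7 to 181) against 134 CPM (101 to 176), with a UMI in all 6 null cells, 5 of which had a tdTomato UMI. Of the 28 genes called at E7.5, *Cd59a*, *Igf2* and *Spink1* lay on the same side with intervals apart, and *Hist1h2ae* lay on the other side with intervals apart. The other genes had overlapping intervals, 18 on the same side and 6 on the other (*Hist1h4d*, *Hist1h3c*, *AC132623.2*, *Ptrf*, *Bcl11b* and *Cap2*). The 18 include *Grb10* and genes of few UMIs, such as *Lyrm7* (0 in null, 1 in WT), *Zfp985* (2 and 0) and *Stat5a* (0 and 2). The share of all genes on the same side or with intervals apart was not computed, so these counts are a description only. *Hist1h2ae* was at 55.0 CPM (29.3 to 94.1) against 205 CPM (163 to 255) and *Hist1h4d* at 59.3 CPM (32.4 to 99.4) against 127 CPM (94.0 to 167). *AC132623.2* was at 29.6 CPM (11.9 to 61.1) against 12.7 CPM (4.11 to 29.6), and *Zfp990* at 29.6 CPM (11.9 to 61.1) against 2.53 CPM (0.0641 to 14.1). Adding the E8.5 libraries to the E7.5 fit with a stage term left *Grb10* with a log2 fold change of -4.71 and an adjusted p of 0.977, and called 17 genes, 15 of them among the 28.

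Embryonic globins stood lower in the 6 null cells of E8.5. *Hba-x* was at 2434 CPM (2239 to 2642) against 6938 CPM (6681 to 7203) in WT, *Hbb-bh1* at 2650 CPM (2447 to 2866) against 4344 CPM (4141 to 4555) and *Hbb-y* at 29.6 CPM (11.9 to 61.1) against 626 CPM (550 to 709). *Klf1* was at 63.5 CPM (35.5 to 104.7) against 139 CPM (104.96 to 181), with intervals that barely part. *Pim1* was at 42.3 CPM (20.3 to 77.9) against 132 CPM (98.4 to 173). *Spi1*, the PU.1 factor of myeloid cells, was at 63.5 CPM (35.5 to 105) against 7.60 CPM (1.57 to 22.2). Intervals of these genes do not overlap between the 2 libraries, but they cover counting error only, and cells differed widely: *Hbb-bh1* ran up to 211 UMIs in a thinned WT cell with a median of 37 and up to 56 in a null cell with a median of 25.5. *Gata1* (106 against 144 CPM), *Runx1* (144 against 114 CPM) and *Lmo2* (377 against 342 CPM) had overlapping intervals. The mean label score, the share of atlas neighbors with the given label, was 0.865 in WT B and 0.76 in null B, against 0.941 to 0.973 in the E7.5 libraries, so the E8.5 cells carry the label less surely.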

How the data were processed

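Per the labels and the study's methods, the authors sorted chimeric embryos on tdTomato, made 10x 3′ v3 libraries, mapped reads with Cell Ranger to mm10, the build that the submitters' processing notes name, with a tdTomato gene added, and deposited UMI counts per gene and cell after their own quality filter. The deposited table of cells gives, per cell, its library, stage and sort, doublet call, atlas label, mitochondrial percent of UMIs as the authors computed it, and the label score, which is the fraction of 25 nearest atlas cells that carry the label. The matrix held 41832 cells and 29453 genes. Removing 3395 doublets, and 596 cells of WT sorts in which tdTomato had a UMI, left 37841 cells. Libraries were tied to groups by the stage and sort columns; the labels give each null library a WT library of the same embryo pool but do not tie the names to pools, so the study's pool term was left out, and both possible pairings were tried as a block.

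Counts were summed per library over Blood progenitors, for libraries with more than 15 such cells. As in the study, 8178 genes (predicted, ribosomal, mitochondrial, globin, Y-linked and the like) were left out; imprinted genes, which the study also left out of its label transfer and its differential expression tests, were kept, and the calls of *Grb10*, *Igf2* and *Zdbf2* rest on this. edgeR 4.0.16 in R 4.3.3 filtered genes, scaled by TMM and ran robust quasi-likelihood tests with Benjamini-Hochberg adjustment. Genes with adjusted p under 0.05 and a log2 fold change over 1 in size were called. The replicates are separate libraries, and p-values measure only the spread between them, which at E7.5 may include a difference of embryo size class. DESeq2 1.42.0 and limma 3.58.1 were alternatives. Cell shares used edgeR over types with at least 20 cells at a stage, and a single value per library an exact permutation test. Shares of cells with a UMI used cells thinned to 10000 UMIs. On simulated counts for the E7.5 comparison (about 8024 genes), 43.6% of 2-fold and 99.2% of 4-fold changes were called. Those counts were drawn from 1 shared profile with the fitted spread of each gene. Differences between libraries in composition or free RNA were not simulated, so the 99.2% holds for such counts only. The 2-fold changes lie exactly at the fold threshold, so many of them fail it whatever the depth, and their share is no measure of sensitivity.

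The planned E8.5, stage and interaction fits were left out under the rule of at least 2 libraries a genotype with more than 15 such cells, which E8.5 did not meet; 1 fit with both E8.5 libraries (16 and 6 cells) and a stage term was added. Coordinates came from GENCODE M21 (GRCm38) and start windows from RefSeq (GRCm38.p6); 26 of 28 called genes matched GENCODE by symbol, *Ptrf* matched as a synonym in RefSeq and *AC132623.2* matched neither. Genes were named if called and on a gene list, or among the 10 largest changes per direction with libraries apart; list genes that were not called were named after their values were seen, for a low unadjusted p or a known role. Members and gene lists were chosen with earlier results of these data known, and lists of genes shifted in erythroid cells were chosen on these samples. Python 3.11.15 with numpy 2.4.6, scipy 1.17.1, pandas 2.3.3 and matplotlib 3.10.9 was used for the rest.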

Additional observations from a re-analysis of the deposited data

Results flagged for a closer look

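The share of Blood progenitors in the E9.5 WT libraries drew attention because 1 of the 4 libraries, WT B, lay far from the rest: it held 1 such cell of 2641 (0.0379%) and the other WT libraries 0. About 1 in 20 groups is set apart in this way by chance, the methods name 2 embryos for the 8 libraries of this stage, the label score of that cell was 0.36, and a single cell carries no weight.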

How the results depend on the processing

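The count of genes called between null and WT Blood progenitors at E7.5 (28) was 51 with no filter on low counts, 28 of them shared, and 17 with the E8.5 libraries added under a stage term, an alternative chosen after seeing the data. It ranged from 23 (without null A) to 37 (without WT A) when 1 library was left out, a fit in which the lone library is assumed to vary like the other group, and from 22 (DESeq2) to 40 (no fold threshold) under the other alternatives. None of the 28 genes reversed in a setting in which it was tested. *Akr1e1*, *Ccnb1ip1*, *Cd59a*, *Clic6*, *Pusl1*, *Stat3*, *Stat5a*, *Zfp984*, *Zfp985* and *Zfp990* were called in every one of these settings in which they were tested. *Grb10*, *Hist1h4d* and *AC132623.2* were lost only with E8.5 added, and *Stat5b*, *Ttr* and *Zdbf2* only without null A; the cause was not tested.

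The log2 fold change of the share at E7.5, 0.02, changed sign to -0.168 as a share of the blood path and to -0.192 without null-sorted cells that lack a tdTomato UMI, and ranged from -0.0684 to 0.253 with 1 library left out. At E8.5 it changed from -0.29 to 0.268 under DESeq2 and to 0.132 as a share of the blood path, and ranged from -1.15 to 1.20 with 1 library left out; without null B or WT B fewer than 20 cells remained and no value was had. None of these passed a test, so the sign is not established. The mean share of cells with a marker UMI was 85.8% thinned and 99.7% unthinned. The difference in mapped day ranged from 0.0209 to 0.0541, with 0 for medians, and the count of globins called from 3 to 5. The labels pair the libraries but the cell table does not say how, so both pairings were tried as a replicate block after seeing the data. They called 38 (null A with WT A, 27 of them among the 28, with *Hist1h2ae* lost at a log2 fold change of 0.999) and 34 genes (null A with WT B, all 28 among them), and the block gave a log2 fold change of the share of 0.0141 and 0.0214 at E7.5 and of 0.281, which changed sign, and -0.276 at E8.5. The E8.5, mean, stage and interaction alternatives were not run, since E8.5 lacked 2 libraries a genotype with more than 15 of these cells. The 18 cells of null B and 2 libraries a genotype set the limit of depth.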
